A study of Mus musculus with 28 samples.

Results

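The motor neuron-like line MN1 and primary cortical neurons were compared through all their total mRNA libraries, 6 from MN1 cells and 8 from neurons, which is 14 of the 28 libraries of the series. The libraries were chosen by cell type and library kind alone, with the TDP-43 groups within each cell type pooled. The remaining 14 libraries held ribosome footprints of the same cultures and were used only as a second readout. MN1 cells are a clonal mouse line made by fusing embryonic spinal motor neurons with neuroblastoma cells, and they had been transiently transfected with plasmids for GFP (2 libraries), human TDP-43, written hTDP-43 (2 libraries), or the ALS mutant hTDP-43 A315T (2 libraries). The neurons were dissected from C57BL/6J cortex at embryonic day 16 and kept for 14 days in vitro. They came from non-transgenic embryos (WT, 2 libraries) or from embryos hemizygous for a transgene of hTDP-43 (3 libraries) or hTDP-43 A315T (3 libraries) driven by the prion protein promoter. Neuron cultures received 0.5 µM cytosine arabinoside, which kills dividing cells, on day 4. Cycloheximide, which arrests ribosomes, was given to MN1 cells at 100 µg/ml for the last 3 min of culture, and neurons were lysed without such a treatment. The MN1 libraries came from 2 culture dates and the neuron libraries from 3 other dates, so cell type cannot be told apart from date, cycloheximide or transfection.

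A neuroblastoma hybrid and a primary neuron differ in origin as well as in maturity. Neuroblastoma arises from the sympathoadrenal lineage of the neural crest, whose cells are specified by homeodomain and Hand transcription factors and make catecholamines. Spinal motor neurons are cholinergic, are specified by LIM and Mnx homeodomain factors, and take their position along the cord from Hox genes. Cortical neurons are postmitotic cells of the forebrain, where Hox genes are silent, and most release glutamate or GABA.

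Assigned reads ranged from 1328528 to 2988339 per MN1 library and from 600385 to 6969578 per neuron library. By these totals alone, 3 reads stood for 1.00 to 2.26 CPM in MN1 cells and for 0.430 to 5.00 CPM in neurons. CPM are reads scaled to a common library total. Counts were scaled by the trimmed mean of M values (TMM), and 11818 genes were tested with edgeR's quasi-likelihood test. All CPM below carry this scaling, on which a single read in neuron hTDP-43 replicate 3 stood for 2.28 CPM. A gene could pass the filter on low counts through either cell type alone. The direction of tested genes nearly unread in the other cell type was therefore partly set by the filter. In all, 4727 genes were higher in MN1 cells (40.0% of those tested) and 5124 were higher in neurons (43.4%) at an adjusted p below 0.05, 83.4% together. These shares are the background for each count of list members below. A stricter test, against a change of 2-fold (glmTreat), called 2695 genes in MN1 cells (22.8%) and 3435 in neurons (29.1%), 51.9% together. The values of the 2 cell types did not overlap for 64.9% of genes, 31.1% with MN1 cells above and 33.8% with neurons above. Each statement below that groups were separate or did not overlap stands beside these shares. Over the 2000 genes with the largest variance, the first principal component held 96.8% of it and separated the cell types. Across genes, log2 values correlated with an r of 0.224 to 0.327 between cell types, 0.968 to 0.984 within MN1 cells and 0.887 to 0.987 within neurons. With library totals as the only scaling, the median gene moved by 0.42 on the log2 scale towards MN1 cells and 58.2% of calls were higher in MN1 cells, against 48.0% with TMM. All log2 fold changes below are MN1 minus neuron, and values in parentheses after a gene are its log2 fold change ± the standard error of the fit and its adjusted p. Each culture date gave 2 or 3 libraries of a cell type and the test took all 14 libraries as separate, so p-values measure the spread between libraries rather than between dates. In the neuron libraries WT replicate 3 and hTDP-43 replicate 3, reads assigned to Lars2 made up 18.8% and 14.1% of the total, against 3.09% to 7.49% in the other neuron libraries and 5.84% to 7.21% in MN1 cells. Without them, 9863 of 11633 genes tested were called and 4692 of these were higher in MN1 cells.

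Sympathoadrenal genes were higher in MN1 cells. Of 26 genes listed for this lineage, 21 were tested, 18 were higher in MN1 cells and 2 in neurons, with a median log2 fold change of 3.52 against -0.07 for all genes tested. Summed over the list, the level was 3627 to 4480 CPM in MN1 cells and 637 to 817 CPM in neurons. Hand2, a factor that specifies noradrenergic neurons, ranged from 841 to 1186 CPM (median 1138) in MN1 cells and from 0 to 2.17 CPM (median 0.549) in neurons. The groups did not overlap, and the log2 fold change was 10.71 ± 0.25, adjusted p = 4.1e-17. Phox2a, a homeodomain activator of the noradrenaline-synthesis genes, ranged from 339 to 405 CPM (median 367) in MN1 cells and from 0 to 0.321 CPM (median 0) in neurons. Only 2 Phox2a reads were found in all neuron libraries together against 5111 in MN1 cells, a ratio of 4374, with a 95% counting interval of 1210 to 36120. Gata2, a zinc-finger factor of the same network, had 4579 reads in MN1 cells and none in neurons, so it was at least 2612-fold higher when the 8 neuron libraries were set together at 3 reads. Insm1 (3.27 ± 0.17, adjusted p = 6.4e-13) and Eya1 (4.16 ± 0.27, adjusted p = 3e-11) were higher in MN1 cells as well. Sox11, a factor of young neurons and of neuroblastoma, went the other way and ranged from 1.81 to 3.06 CPM (median 2.29) in MN1 cells and from 188 to 433 CPM (median 260.5) in neurons. Every neuron library lay above every MN1 library, with a log2 fold change of -6.89 ± 0.25, adjusted p = 4.7e-15. Mycn, the oncogene amplified in aggressive neuroblastoma, was slightly higher in neurons, with overlapping groups (-0.63 ± 0.16, adjusted p = 0.0012), and was not called in any single TDP-43 group (adjusted p = 0.0534 to 0.129) or with library totals as the only scaling (0.267).

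The genes for catecholamine synthesis were higher in MN1 cells but at low levels. Th, tyrosine hydroxylase, ranged from 4.73 to 22.1 CPM (median 11.2) in MN1 cells and from 0 to 4.69 CPM (median 0.373) in neurons and the groups only just parted (3.52 ± 0.55, adjusted p = 7.3e-06). Dbh, which makes noradrenaline from dopamine, ranged from 6.04 to 20.3 CPM (median 12.2) in MN1 cells and from 0 to 2.66 CPM (median 1.10) in neurons (3.19 ± 0.39, adjusted p = 2.7e-07), and Ddc, the decarboxylase between them, ranged from 23.9 to 37.4 CPM (median 30.2) in MN1 cells and from 0 to 3.28 CPM (median 1.16) in neurons (4.56 ± 0.31, adjusted p = 4.3e-11). The vesicular transporter Slc18a2 was not called (-0.26 ± 0.31, adjusted p = 0.45). Granule proteins were much more abundant: chromogranin B (Chgb) ranged from 659 to 753 CPM (median 708) in MN1 cells and from 106 to 154 CPM (median 134) in neurons and did not overlap (2.42 ± 0.10, adjusted p = 3.2e-14). Among receptors, all 5 listed genes were over 2-fold higher in MN1 cells. Chrna3, a nicotinic subunit of sympathetic ganglia, ranged from 209 to 254 CPM (median 233) in MN1 cells and from 0 to 2.28 CPM (median 1.37) in neurons and its partner Chrnb4 from 16.1 to 25.6 CPM (median 22.3) in MN1 cells and from 0 to 1.48 CPM (median 0.142) in neurons. Both groups were separate, with log2 fold changes of 7.34 ± 0.17, adjusted p = 2.9e-17 for Chrna3 and 5.39 ± 0.39, adjusted p = 1.5e-10 for Chrnb4. Ngfr, the low-affinity neurotrophin receptor, showed 5.83 ± 0.17, adjusted p = 2.9e-16. Prph, which encodes the peripheral neuron filament peripherin, ranged from 655 to 873 CPM (median 798) in MN1 cells and from 2.28 to 11.8 CPM (median 7.38) in neurons and was separate as well (6.68 ± 0.22, adjusted p = 1.2e-15). Peripherin also marks motor neurons, as does Ret, the GDNF receptor kinase, which ranged from 554 to 1018 CPM (median 781) in MN1 cells and from 7.23 to 13.7 CPM (median 11.6) in neurons (6.22 ± 0.20, adjusted p = 6.7e-16).

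The motor neuron list went in both directions. Of its 30 members, 16 were tested, 7 were higher in MN1 cells and 9 in neurons (43.8% and 56.2%, against 40.0% and 43.4% of all genes tested). Mnx1 and the LIM factors Lhx3, Lhx4 and Isl2, which determine the fate, were near the limit of detection. Mnx1 had 14 reads over all MN1 libraries and 2 over all neuron libraries, a ratio of 12.0, with a 95% counting interval of 2.75 to 109 after scaling. Lhx3 had 34 and 9 reads, Lhx4 57 and 10, and Isl2 55 and 5, and none of them passed the filter on low counts. Such read counts are not scaled for depth. In CPM, Lhx3 ranged from 0.612 to 5.13 in MN1 cells and from 0 to 2.17 in neurons. Lhx4 went from 2.765 to 5.50 in MN1 cells and from 0 to 2.35 in neurons, and Isl2 from 1.84 to 6.91 and from 0 to 2.28. The highest neuron value of Isl2 was a single read in hTDP-43 replicate 3, and the other neuron libraries had at most 0.469 CPM. Isl1, which sympathetic neurons use too, was tested and ranged from 26.6 to 39.2 CPM (median 32.4) in MN1 cells and from 1.42 to 6.57 CPM (median 3.70) in neurons. It was separate between the groups, at 3.15 ± 0.22, adjusted p = 7.8e-11. Chat, the enzyme that makes acetylcholine, had 18 reads in MN1 cells and 13 in neurons, and the choline transporter Slc5a7 had 18 and 30. In CPM both overlapped, Chat from 0 to 2.56 in MN1 cells and from 0 to 2.28 in neurons. Slc5a7 went from 0 to 3.69 CPM in MN1 cells and from 0.284 to 2.28 CPM in neurons. The vesicular acetylcholine transporter Slc18a3, whose gene lies within the first intron of Chat, ranged from 15.4 to 32.3 CPM (median 26.6) in MN1 cells and from 0 to 4.14 CPM (median 2.31) in neurons (3.36 ± 0.27, adjusted p = 5.6e-10). Acetylcholinesterase (Ache) was lower in MN1 cells and ranged from 7.69 to 21.4 CPM (median 15.3) in MN1 cells and from 80.2 to 129.8 CPM (median 111) in neurons (-2.82 ± 0.21, adjusted p = 1.7e-10). Of the members that separate motor columns and pools, Etv4 was higher in MN1 cells (2.86 ± 0.31, adjusted p = 5.1e-08), and Foxp1 (-3.18 ± 0.22, adjusted p = 6.9e-11), Pou3f1 (-5.95 ± 0.29, adjusted p = 2.6e-13) and Alcam (-7.00 ± 0.44, adjusted p = 1.8e-11) were higher in neurons. The last 3 are also expressed in cortex.

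**Figure D1:**
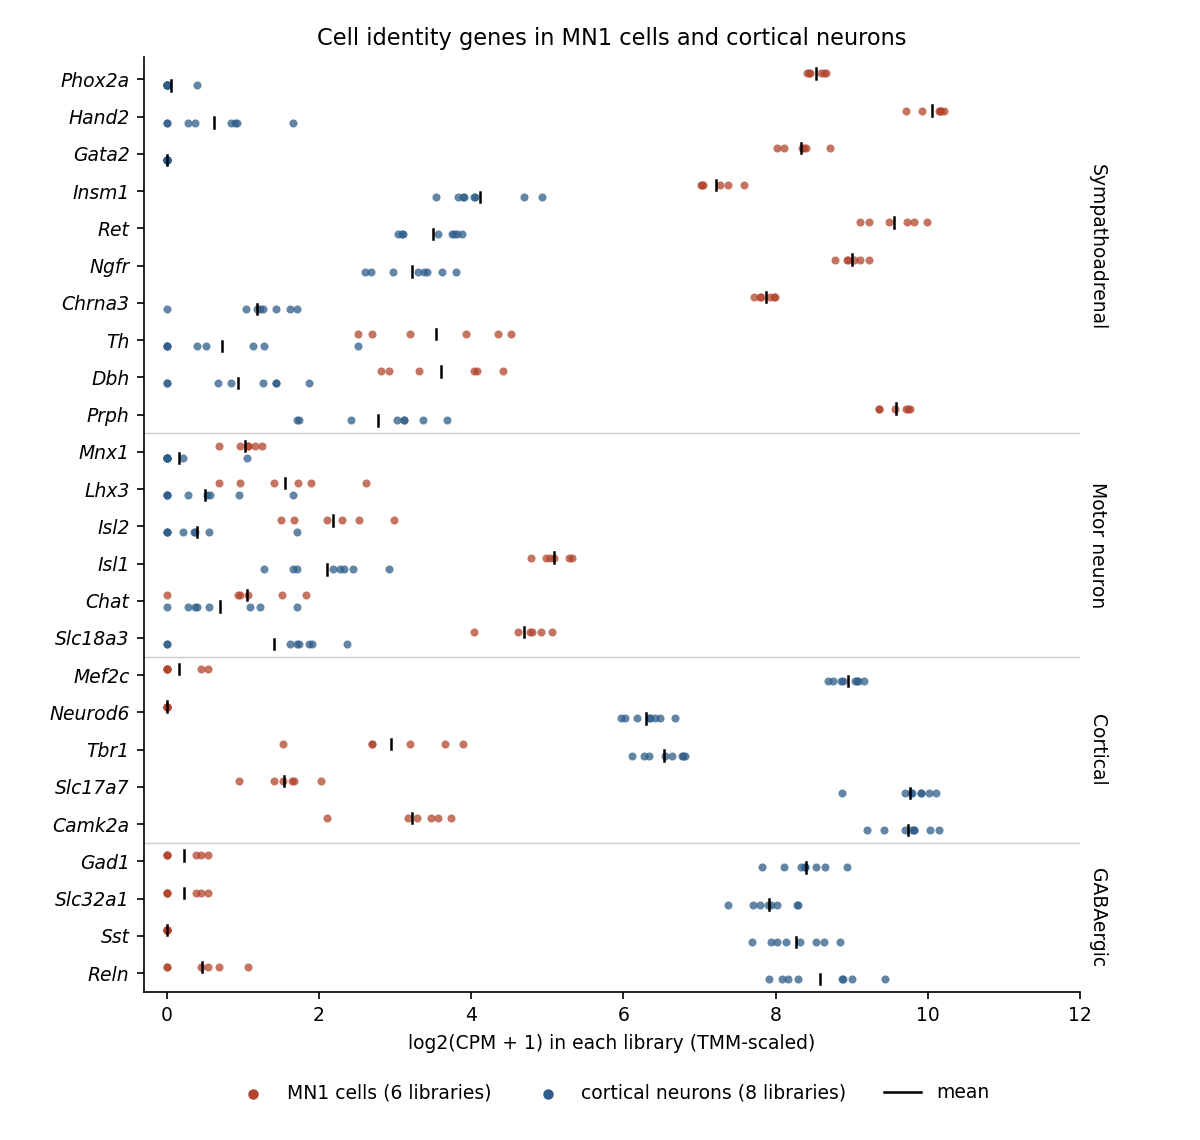
Level of 25 identity genes in every library, as log2(CPM + 1) after TMM scaling, with MN1 cells in red (6 libraries), cortical neurons in blue (8 libraries) and a black tick at the mean of each group. Sympathoadrenal genes lay to the right in MN1 cells, cortical and GABAergic genes in neurons, and Mnx1, Lhx3, Isl2 and Chat overlapped between the cell types at low levels. The overlap rested on a single read in neuron hTDP-43 replicate 3 for Isl2 (2.28 CPM) and in neuron hTDP-43 replicate 2 for Mnx1 (1.085 CPM).

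Hox reads came mainly from the Hoxc cluster in MN1 cells. Of the 39 genes, 4 passed the filter, and 3 of these, all in Hoxc, were over 2-fold higher in MN1 cells. These 3 had a median of 0 CPM in neurons and passed through MN1 cells, so their direction was partly set by the filter. Hoxc9, which sets thoracic identity in the cord, ranged from 29.8 to 43.8 CPM (median 35.4) in MN1 cells and from 0 to 0.938 CPM (median 0) in neurons (7.36 ± 0.36, adjusted p = 3.8e-13). Hoxc10, a gene of the lumbar cord, ranged from 23.4 to 28.01 CPM (median 25.6) in MN1 cells and from 0 to 0.444 CPM (median 0) in neurons, and with 2 reads in all neurons the ratio was 304, with a 95% counting interval of 83.5 to 2518. Hoxc6, a gene of the brachial cord, ranged from 6.74 to 12.7 CPM (median 10.3) in MN1 cells and from 0 to 3.28 CPM (median 0) in neurons (4.70 ± 0.58, adjusted p = 3.5e-07). MN1 cells were above neurons in every library for all 3. No Hoxa gene passed the filter, and the one with the most reads, Hoxa7, had 60 in MN1 cells and 8 in neurons. Hoxb9, the fourth gene tested, was higher in neurons by the plain test, at 2.94 CPM in MN1 cells and 5.21 CPM in neurons by the median (-1.30 ± 0.45, adjusted p = 0.012), a call that was lost under 4 alternatives. Every Hoxd gene had at most 14 reads in either cell type. Over all 39 genes the summed level was 85.6 to 114 CPM in MN1 cells and 6.21 to 35.2 CPM in neurons.

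**Figure D2:**
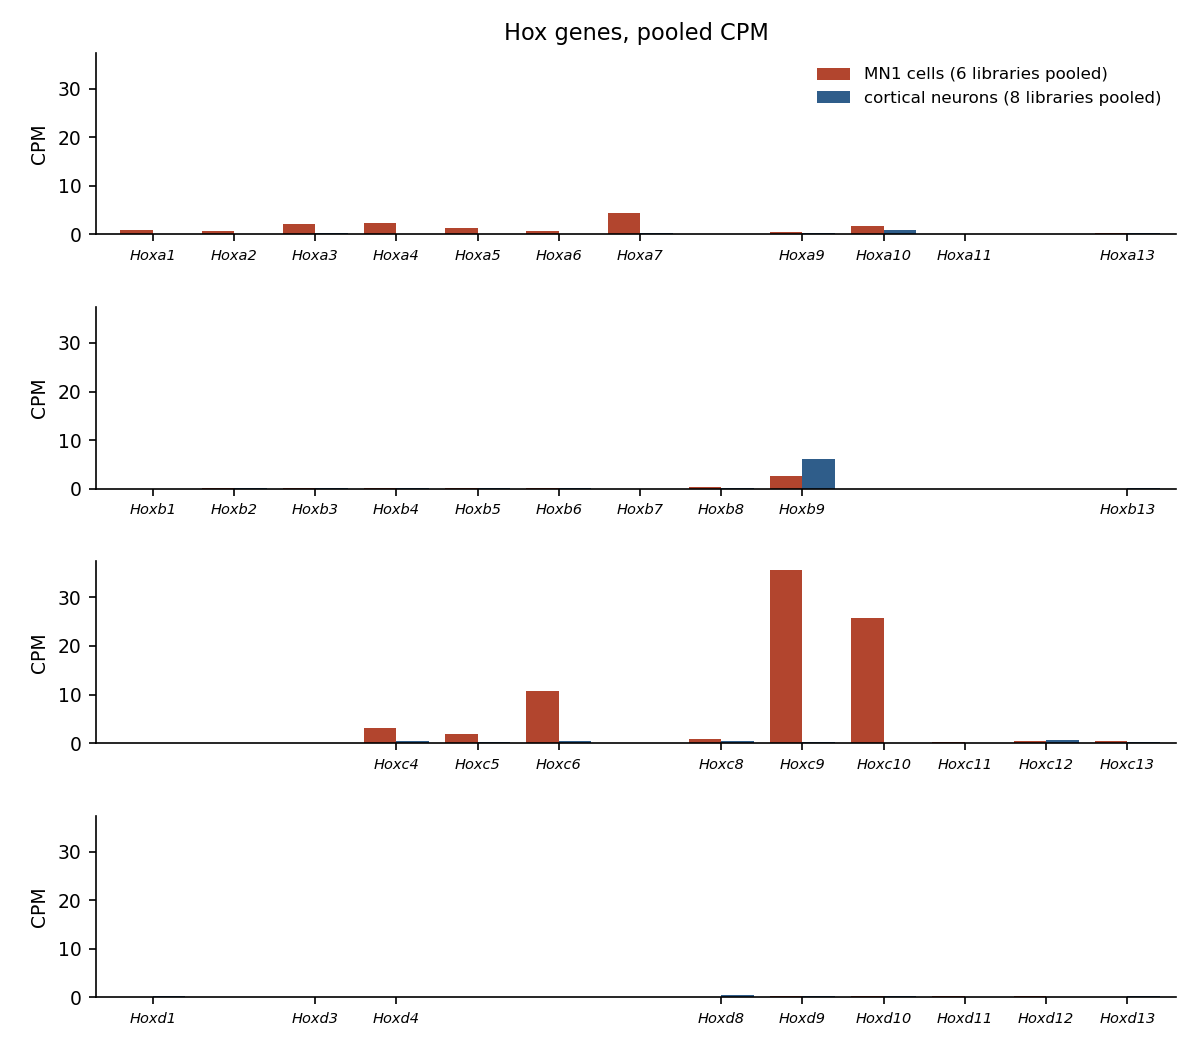
Level of each of the 39 Hox genes in CPM, with the reads of the 6 MN1 libraries (red) and of the 8 neuron libraries (blue) pooled, 1 panel per cluster in the order of gene number. Hoxc9 and Hoxc10 reached 35.6 and 25.8 CPM in MN1 cells, and bars for Hoxb and Hoxd genes stayed near 0 except for Hoxb9.

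Cortical projection neuron genes were higher in neurons almost without exception. Of 30 listed, 28 were tested and 26 were higher in neurons, 23 of them by over 2-fold, with a list median of -4.89. Mef2c, an activity-responsive transcription factor, ranged from 0 to 0.461 CPM (median 0) in MN1 cells and from 413 to 570 CPM (median 499.8) in neurons. The 2 reads in MN1 cells against 11421 in neurons gave a ratio of 3337, with a 95% counting interval of 924 to 27550. Neurod6, a factor of excitatory cortical neurons, had no read in MN1 cells and ranged from 61.5 to 101 CPM in neurons, at least 362-fold higher. Layer markers were all present in neurons: Tbr1 of layer 6 (-3.59 ± 0.26, adjusted p = 1.1e-10), Bcl11b and Fezf2 of layer 5 (-8.07 ± 0.30, adjusted p = 7.1e-15 and -5.08 ± 0.28, adjusted p = 1.9e-12), and Cux2 of upper layers (-5.10 ± 0.21, adjusted p = 3.5e-14). Slc17a7, which loads glutamate into vesicles, ranged from 0.922 to 3.06 CPM (median 2.00) in MN1 cells and from 468 to 1099 CPM (median 923) in neurons (-8.79 ± 0.26, adjusted p = 3.6e-16). Neurogranin (Nrgn), a dendritic calmodulin-binding protein, ranged from 0 to 1.65 CPM (median 0.236) in MN1 cells and from 232 to 1008 CPM (median 528) in neurons (-10.47 ± 0.51, adjusted p = 3e-13). No MN1 library reached a neuron library for either gene. Pax6, a progenitor factor, was the single member higher in MN1 cells (1.21 ± 0.29, adjusted p = 0.00078), and Id2 was not called (-0.22 ± 0.12, adjusted p = 0.092), but was without WT replicate 3 (-0.32) or hTDP-43 replicate 3 (-0.31). Of 7 tested forebrain patterning factors, 4 were higher in neurons and 2 in MN1 cells (57.1% and 28.6%, against 43.4% and 40.0% of all genes tested). Of 20 pan-neuronal genes, 19 were higher in neurons, 15 of them by over 2-fold (median -3.29), and the exception was Nefh.

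GABAergic interneuron genes were higher in the neuron cultures. All 21 tested members were higher in neurons, 19 by over 2-fold, and the list median was -8.51, or -7.04 with the 5 genes that had no MN1 read set at their bound. Members nearly without MN1 reads, such as these 5, passed the filter through neurons alone, so this count was partly set by it. Gad1, which makes GABA, ranged from 0 to 0.461 CPM (median 0.151) in MN1 cells and from 224 to 492 CPM (median 334) in neurons, with 3 reads in all MN1 cells and a ratio of 1722, with a 95% counting interval of 589 to 8354. The vesicular GABA transporter Slc32a1 ranged from 0 to 0.461 CPM (median 0.151) in MN1 cells and from 165 to 313 CPM (median 242) in neurons. Somatostatin (Sst), a peptide of 1 interneuron class, had no MN1 read and ranged from 205 to 459 CPM in neurons, at least 1579-fold higher. Neuropeptide Y (Npy) likewise had none and was at least 272-fold higher. Reelin (Reln) ranged from 0 to 1.10 CPM (median 0.414) in MN1 cells and from 241 to 693 CPM (median 390) in neurons (-9.72 ± 0.42, adjusted p = 5.2e-14). Parvalbumin (Pvalb) had 1 read in MN1 cells and 8 in neurons and was not tested.

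Markers of non-neuronal cells were checked in both cell types. For astrocytes, 9 of 10 tested genes were higher in neurons, with a list sum of 43.9 to 77.0 CPM in MN1 cells and 394 to 786 CPM in neurons. The largest part was Slc1a2, a glutamate transporter that neurons can also express, which ranged from 0 to 0.906 CPM (median 0.511) in MN1 cells and from 198 to 526 CPM (median 296) in neurons (-9.12 ± 0.37, adjusted p = 2.2e-14). Other astrocyte markers followed it. The glutamate transporter Slc1a3 ranged from 0 to 0.549 CPM (median 0.230) in MN1 cells and from 25.4 to 55.0 CPM (median 39.9) in neurons (ratio 187, with a 95% counting interval of 63.7 to 907). Clu, a secreted chaperone, ranged from 6.60 to 9.22 CPM (median 7.12) in MN1 cells and from 66.6 to 120.2 CPM (median 94.9) in neurons (-3.58 ± 0.17, adjusted p = 2.6e-13). Fabp7, a lipid-binding protein of radial glia and astrocytes, Aldh1l1, a folate enzyme, and the gap junction gene Gja1 had no MN1 read and 903, 334 and 184 reads in neurons, so they were at least 176-fold, at least 65.0-fold and at least 35.8-fold higher there with the 6 MN1 libraries set together at 3 reads. The groups did not overlap for any of the 5, which held, with neurons above, for 33.8% of all genes tested. Gfap (103 reads in 8 neuron libraries), S100b (51) and Slc7a10 (13) did not pass the filter, and Sox9, which is also active outside astrocytes, was higher in MN1 cells (1.85 ± 0.16, adjusted p = 1.6e-09). The oligodendrocyte list summed to 19.6 to 36.4 CPM in MN1 cells and 62.9 to 123 CPM in neurons, and held Olig1, which ranged from 0 to 0.461 CPM (median 0) in MN1 cells and from 6.57 to 43.3 CPM (median 25.7) in neurons. Microglial genes were nearly all under the filter, and Csf1r had 0 and 16 reads. The endothelial genes Cldn5 and Kcnj8 had no read in either cell type, and of the 2 that were tested Pecam1 was higher in MN1 cells and Notch3 in neurons. For fibroblasts, Col1a1 had 18 and 64 reads, and the 1 list member that could be tested was Thy1, which neurons express and which is described below. The part of these cells in the other differences was not tested. In bulk RNA, fewer cells of a type and less RNA per cell cannot be told apart.

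Proliferation genes were higher in MN1 cells nearly throughout. Of 70 cell cycle genes, 68 were tested, 63 were higher in MN1 cells and 4 in neurons, with a median log2 fold change of 5.32 and a summed level of 7447 to 8818 CPM in MN1 cells and 892 to 1200 CPM in neurons. All 30 genes of G2/M and mitosis were over 2-fold higher in MN1 cells, with log2 fold changes from 3.36 to 8.85. Cdk1, the kinase that drives mitosis, ranged from 87.6 to 132 CPM (median 111) in MN1 cells and from 0 to 1.91 CPM (median 0.302) in neurons (7.37 ± 0.31, adjusted p = 3.1e-14). Its partner Ccnb1 ranged from 103 to 118 CPM (median 111) in MN1 cells and from 0 to 1.08 CPM (median 0.228) in neurons (7.87 ± 0.25, adjusted p = 7.4e-16). Bub1, a checkpoint kinase, had 552 reads in MN1 cells and 1 in neurons, a ratio of 945, with a 95% counting interval of 169 to 37380. Of 28 genes of G1/S and replication, 26 were over 2-fold higher in MN1 cells and 1, Ccnd2, in neurons. Mcm3, part of the replicative helicase, ranged from 227 to 355 CPM (median 294) in MN1 cells and from 0 to 2.17 CPM (median 0.763) in neurons (8.37 ± 0.27, adjusted p = 1.1e-15), and Cdk2, the S-phase kinase, ranged from 95.6 to 126 CPM (median 102) in MN1 cells and from 0 to 2.28 CPM (median 0.382) in neurons (7.84 ± 0.26, adjusted p = 1.2e-15). Uhrf1, which maintains DNA methylation during replication, showed 8.49 ± 0.29, adjusted p = 2.1e-15. The D-type cyclins split: Ccnd1 ranged from 208 to 246 CPM (median 227) in MN1 cells and from 24.8 to 47.8 CPM (median 36.8) in neurons (2.68 ± 0.14, adjusted p = 5.5e-13) and Ccnd2 ranged from 1.83 to 5.20 CPM (median 3.76) in MN1 cells and from 242 to 535 CPM (median 309) in neurons (-6.38 ± 0.23, adjusted p = 4.5e-15). Both were separate between cell types, in opposite directions.

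Several inhibitors of the cycle were also higher in MN1 cells. Cdkn2a, which encodes p16Ink4a and p19Arf from partly shared exons that gene counts cannot part, ranged from 84.6 to 119 CPM (median 98.4) in MN1 cells and from 0.888 to 3.40 CPM (median 2.42) in neurons (5.32 ± 0.17, adjusted p = 6.9e-16). Trp53 ranged from 105 to 137 CPM (median 113) in MN1 cells and from 8.02 to 15.6 CPM (median 12.2) in neurons (3.28 ± 0.16, adjusted p = 4e-13), and the pocket protein Rbl1 from 28.8 to 56.1 CPM (median 46.6) in MN1 cells and from 0 to 2.28 CPM (median 1.25) in neurons (5.43 ± 0.29, adjusted p = 1.6e-12). The groups did not overlap for any of the 3, which held, with MN1 cells above, for 31.1% of all genes tested. The retinoblastoma gene Rb1 (-1.17 ± 0.28, adjusted p = 0.00077) and Cdkn1a (-0.49 ± 0.15, adjusted p = 0.0062), which encodes the p53-induced inhibitor p21, were higher in neurons, the latter with a call that was lost under 5 alternatives, and Rbl2 was not called (-0.29 ± 0.17, adjusted p = 0.12), but was without MN1 hTDP-43 A315T replicate 2 (-0.38) or neuron hTDP-43 replicate 2 (-0.36). Among 20 tested genes of p53 response and cell death, 6 were higher in MN1 cells and 12 in neurons. These shares were 30% and 60%, against 40.0% and 43.4% of all genes tested. The p53 target Mdm2 was higher in MN1 cells (2.23 ± 0.12, adjusted p = 1.2e-12), and the death-promoting Bcl2l11 in neurons (-2.86 ± 0.25, adjusted p = 3e-09).

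The promoters of these co-varying genes are shown for the motifs known to time cell cycle transcription: the cell cycle homology region (CHR), read by the DREAM and MuvB complexes at mitotic genes, and the E2F site of replication genes. Windows of 250 bases before to 50 after a start came from RefSeq (GRCm38.p6), for 27025 genes in all and for 24 of the 30 mitotic and 22 of the 28 replication genes. The CHR core TTTGAA, on either strand, was found for 17 of 24 mitotic genes (70.8%), 2 of 22 replication genes (9.09%), 13.3% of the 9215 tested genes with a window and 20.2% of all genes. The E2F core, as TTCCCGC or TTGGCGC on either strand, was found for 13 of 22 replication genes (59.1%), 3 of 24 mitotic genes (12.5%), 14.8% of tested genes and 7.79% of all. CHR core and CCAAT box together stood in 15 of 24 mitotic promoters (62.5%) and in 5.46% of those tested. These motifs were chosen with the values known, and a match shows letters, not binding. Below, the CHR core (or its complement) is in capitals in the 30 bases around the match nearest the start, for the 6 mitotic genes with a match and the largest differences.
Cdk1: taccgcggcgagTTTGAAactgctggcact
Top2a: gctagataaaggTTCAAAtgaaactaggga
Cdc20: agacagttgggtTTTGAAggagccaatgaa
Bub1b: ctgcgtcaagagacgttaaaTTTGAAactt
Aurka: aaaaggagaaccTTTGAAttgtaacggctg
Ndc80: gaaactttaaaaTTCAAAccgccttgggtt

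For the 4 replication genes with the largest differences and a match, the E2F core or its complement is in capitals in the same way.
E2f2: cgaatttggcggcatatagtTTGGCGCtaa
Uhrf1: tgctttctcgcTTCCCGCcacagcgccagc
Mcm3: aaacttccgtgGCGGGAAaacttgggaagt
Cdk2: gccagggaaacGCGGGAAggaggggcgggg

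Read on the strand named, these windows lie at chr10:69352910-69352939 on the minus strand (Cdk1), chr11:99024195-99024224 on the minus strand (Top2a), chr4:118437344-118437373 on the minus strand (Cdc20), chr2:118598231-118598260 on the plus strand (Bub1b), chr2:172370521-172370550 on the minus strand (Aurka), chr17:71526811-71526840 on the minus strand (Ndc80), chr4:136172294-136172323 on the plus strand (E2f2), chr17:56303278-56303307 on the plus strand (Uhrf1), chr1:20820275-20820304 on the minus strand (Mcm3), chr10:128705043-128705072 on the minus strand (Cdk2). All 10 genes shown were over 2-fold higher in MN1 cells, between 6.35 ± 0.41, adjusted p = 2.1e-11 for Ndc80 and 8.53 ± 0.31, adjusted p = 3.7e-15 for E2f2.

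Growth genes were higher in MN1 cells too. All 55 cytosolic ribosomal protein genes tested were higher, 43 by over 2-fold, with log2 fold changes from 0.53 to 2.75 and a median of 1.79. Their summed level was 15800 to 20280 CPM in MN1 cells and 2903 to 7186 CPM in neurons. Rpl8 ranged from 1063 to 1318 CPM (median 1268) in MN1 cells and from 111 to 322 CPM (median 266) in neurons (2.38 ± 0.22, adjusted p = 4.1e-09) and Rps3 from 969 to 1209 CPM (median 1091) in MN1 cells and from 174 to 417 CPM (median 348) in neurons (1.77 ± 0.18, adjusted p = 2.5e-08), without overlap. Rpl38, with the smallest difference, overlapped (0.53 ± 0.24, adjusted p = 0.044) and lost its call when any of 9 libraries was left out, with the lowest value, 0.33, without WT neuron replicate 3. Many of these genes have processed pseudogenes, so that their uniquely aligned counts are uncertain. All 17 genes of ribosome biogenesis were higher in MN1 cells, with a median of 1.98. Among them Myc, which drives ribosome production, ranged from 107 to 148 CPM (median 125) in MN1 cells and from 11.1 to 15.2 CPM (median 13.2) in neurons (3.29 ± 0.11, adjusted p = 1.5e-15), and the nucleolar chaperone Npm1 from 292 to 567 CPM (median 374) in MN1 cells and from 21.7 to 48.6 CPM (median 39.5) in neurons (3.39 ± 0.19, adjusted p = 1.8e-12). MN1 cells exceeded neurons in every library for both.

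Synaptic machinery was the counterpart in neurons. Of 34 vesicle and release genes, 29 were higher in neurons and 4 in MN1 cells (median -3.47), and of 25 postsynaptic genes 24 and none (median -5.13). The vesicle SNARE Vamp2 ranged from 34.6 to 63.6 CPM (median 49.5) in MN1 cells and from 982 to 1559 CPM (median 1340) in neurons (-4.75 ± 0.17, adjusted p = 3.8e-15). Its relative Vamp1, the form of spinal cord and motor terminals, was higher in MN1 cells, from 42.8 to 101 CPM (median 56.9) in MN1 cells and from 12.2 to 31.9 CPM (median 23.9) in neurons (1.56 ± 0.20, adjusted p = 7.1e-07). The vesicle glycoproteins of the Sv2 family parted likewise. Sv2b ranged from 0 to 0.366 CPM (median 0) in MN1 cells and from 208 to 387 CPM (median 256) in neurons, with 1 MN1 read and a ratio of 3532, with a 95% counting interval of 634 to 139500, and Sv2c ranged from 182 to 219.5 CPM (median 188) in MN1 cells and from 51.1 to 149 CPM (median 112) in neurons (0.86 ± 0.20, adjusted p = 0.00054). Rims1, an active zone scaffold, was -6.99 ± 0.30, adjusted p = 4e-14 and its paralog Rims2 0.78 ± 0.19, adjusted p = 0.00081, the latter with overlapping groups. Other release genes were read in MN1 cells at closer levels: Unc13a, which primes vesicles, ranged from 203 to 250 CPM (median 232) in MN1 cells and from 438 to 642 CPM (median 509) in neurons (-1.17 ± 0.11, adjusted p = 6.3e-09), and synaptophysin (Syp) from 125 to 220.3 CPM (median 175) in MN1 cells and from 915 to 1252 CPM (median 1113) in neurons (-2.69 ± 0.15, adjusted p = 1.7e-12). The postsynaptic scaffold Shank1 ranged from 4.73 to 9.68 CPM (median 6.09) in MN1 cells and from 1048 to 2122 CPM (median 1276) in neurons (-7.71 ± 0.26, adjusted p = 1.2e-15), and Dlg4, which encodes PSD-95, from 58.6 to 89.0 CPM (median 63.5) in MN1 cells and from 673 to 1503 CPM (median 1342) in neurons (-4.20 ± 0.19, adjusted p = 1e-13). Neither overlapped. Dlg1, the widespread relative of Dlg4, was not called (-0.17 ± 0.16, adjusted p = 0.3).

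Receptors and channels followed. Of 42 tested transmitter receptor subunits, 40 were higher in neurons (median -6.98), and the 2 exceptions were the ganglionic Chrna3 and Chrnb4 given above. The NMDA receptor subunit Grin2b ranged from 0.461 to 1.81 CPM (median 1.02) in MN1 cells and from 631 to 2029 CPM (median 1242) in neurons (-10.01 ± 0.41, adjusted p = 2.2e-14), while the obligatory subunit Grin1 was detectable in MN1 cells, from 8.24 to 17.97 CPM (median 13.7) in MN1 cells and from 266 to 451 CPM (median 339.6) in neurons (-4.69 ± 0.17, adjusted p = 4e-15). Each of the 14 ionotropic glutamate, 7 metabotropic glutamate and 13 GABA receptor genes was over 2-fold higher in neurons. The cortical nicotinic subunit Chrna4 ranged from 0 to 0.604 CPM (median 0) in MN1 cells and from 43.1 to 84.0 CPM (median 62.5) in neurons, a ratio of 276, with a 95% counting interval of 94.4 to 1342. Of 49 channel and chloride transporter genes, 47 were higher in neurons (median -5.42). The neuronal sodium channel Scn2a ranged from 0.461 to 3.66 CPM (median 1.67) in MN1 cells and from 145 to 460.3 CPM (median 242) in neurons (-7.02 ± 0.38, adjusted p = 1.5e-12). Scn9a, the channel of sympathetic and sensory neurons, was the 1 gene higher in MN1 cells, from 9.68 to 21.8 CPM (median 14.2) in MN1 cells and from 0 to 8.45 CPM (median 1.13) in neurons (2.98 ± 0.44, adjusted p = 4e-06). Slc12a5 (KCC2), the chloride exporter that appears as neurons mature, ranged from 15.9 to 22.2 CPM (median 17.1) in MN1 cells and from 321 to 526 CPM (median 462) in neurons (-4.63 ± 0.15, adjusted p = 6.7e-16), and the importer Slc12a2 (NKCC1) was not called (-0.12 ± 0.18, adjusted p = 0.54). The groups parted for Slc12a5 and overlapped for Slc12a2.

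**Figure D3:**
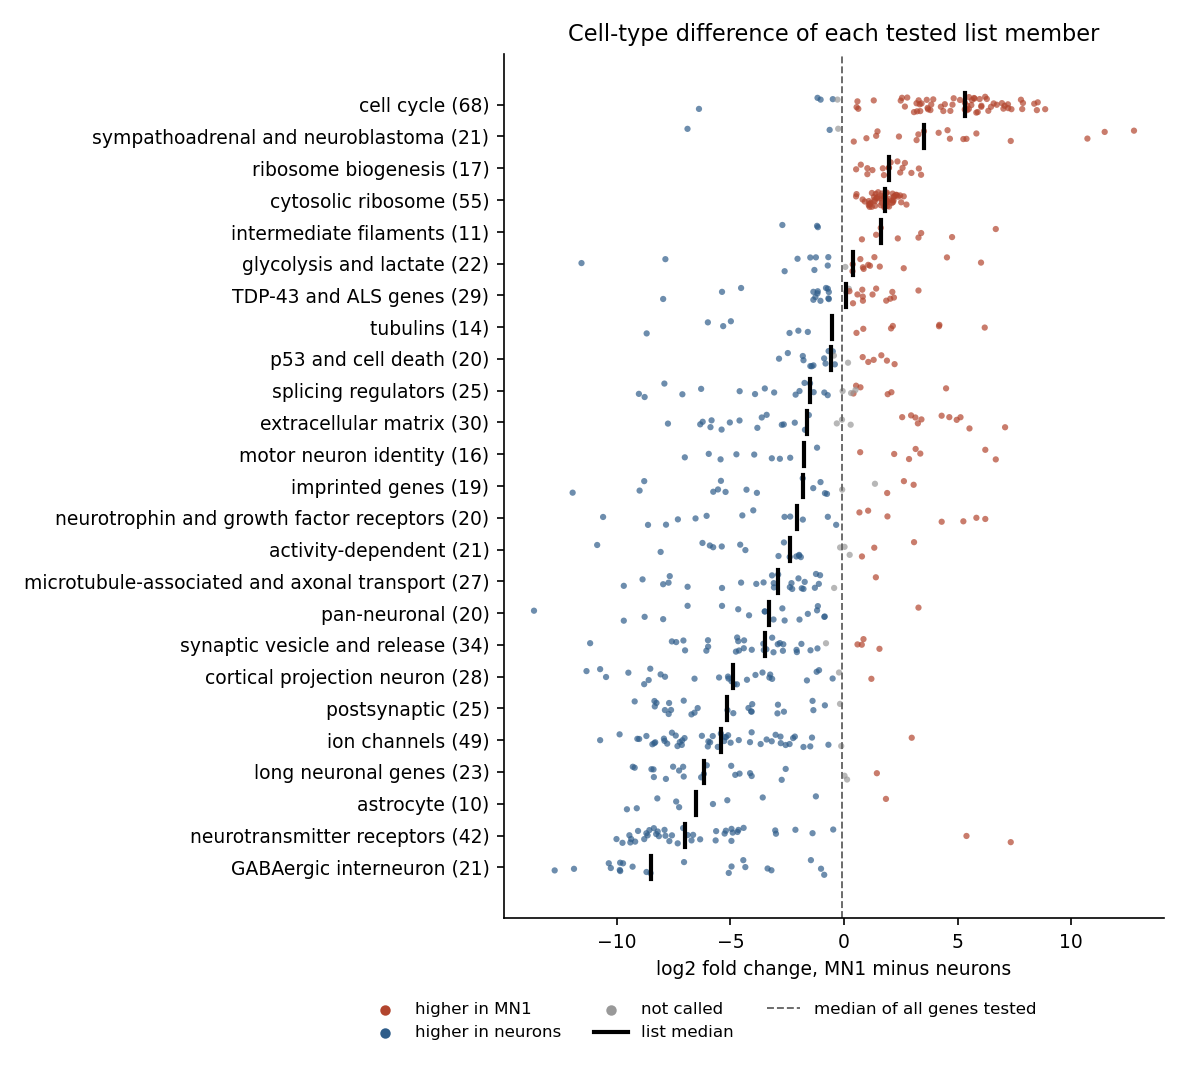
Log2 fold change, MN1 minus neurons, of each tested gene in the lists with 10 or more tested members (number in parentheses), coloured red or blue where the adjusted p was below 0.05 and grey otherwise. The black tick is the list median and the dashed line the median of all genes tested (-0.07), with medians running from -8.51 for GABAergic interneuron genes to 5.32 for the cell cycle.

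Cytoskeletal genes differed member by member. Of 14 tested tubulin genes, 7 were higher in MN1 cells and 7 in neurons (50% each, near the 40.0% and 43.4% of all genes tested). Per kilobase of exon, the highest tubulins of MN1 cells were Tubb5 (median 477 RPKM, CPM divided by exon length in kb) and Tuba1b (214 RPKM), and those of neurons were Tubb3 (572 RPKM) and Tuba1a (553 RPKM). Tuba1c ranged from 77.8 to 109 CPM (median 87.8) in MN1 cells and from 0 to 2.28 CPM (median 1.21) in neurons (6.19 ± 0.19, adjusted p = 4.4e-16), and Tuba4a from 0.549 to 3.78 CPM (median 3.26) in MN1 cells and from 126 to 219 CPM (median 188) in neurons (-5.99 ± 0.22, adjusted p = 4.7e-15). Beta-tubulin Tubb6 ranged from 100.5 to 137 CPM (median 124) in MN1 cells and from 5.33 to 11.4 CPM (median 6.58) in neurons (4.18 ± 0.13, adjusted p = 4.9e-16), and Tubb4a from 0 to 1.51 CPM (median 0.824) in MN1 cells and from 339 to 485 CPM (median 395) in neurons (-8.68 ± 0.23, adjusted p = 9.4e-17). These 4 were separate in every library. Tubulin genes are close in sequence, so short reads shared between them could not be counted uniquely.

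Filament genes differed too. Of the neurofilament subunits, Nefh, the heavy chain of large projection axons, was higher in MN1 cells and ranged from 148 to 190.5 CPM (median 170.5) in MN1 cells and from 10.3 to 25.1 CPM (median 17.7) in neurons (3.28 ± 0.15, adjusted p = 1.3e-13). The light chain Nefl ranged from 10.4 to 19.9 CPM (median 16.2) in MN1 cells and from 78.1 to 136 CPM (median 104) in neurons (-2.71 ± 0.15, adjusted p = 3.3e-12), and the medium chain Nefm (-1.19 ± 0.18, adjusted p = 3.8e-06) and Ina (-1.15 ± 0.11, adjusted p = 6.8e-09) were also higher in neurons. All 6 tested non-neuronal filament and lamin genes were higher in MN1 cells, such as vimentin (Vim), from 227 to 308 CPM (median 289) in MN1 cells and from 17.4 to 32.6 CPM (median 27.0) in neurons (3.40 ± 0.13, adjusted p = 1.4e-14), and Krt8 at 4.75 ± 0.42, adjusted p = 3.1e-09. Of 27 microtubule-associated and kinesin genes, 25 were higher in neurons. The dendritic Map2 ranged from 4.94 to 10.6 CPM (median 6.84) in MN1 cells and from 594 to 1259 CPM (median 861) in neurons (-6.88 ± 0.25, adjusted p = 3.6e-15), tau (Mapt) from 29.3 to 35.5 CPM (median 31.2) in MN1 cells and from 1216 to 1560 CPM (median 1259) in neurons (-5.37 ± 0.13, adjusted p = 5.1e-17), and doublecortin (Dcx) from 0 to 0.549 CPM (median 0.230) in MN1 cells and from 112 to 440.1 CPM (median 203) in neurons, a ratio of 1014, with a 95% counting interval of 347 to 4918. Kif5a, the neuronal kinesin-1, was -4.53 ± 0.16, adjusted p = 3.2e-15, and its ubiquitous form Kif5b was not called (-0.43 ± 0.25, adjusted p = 0.11), but was without MN1 hTDP-43 replicate 1 (-0.62). Mid1ip1, which encodes the microtubule-binding MIG12, was the 1 member higher in MN1 cells, from 137 to 176 CPM (median 162) in MN1 cells and from 42.2 to 91.9 CPM (median 57.1) in neurons (1.402 ± 0.16, adjusted p = 8.7e-08).

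Splicing regulators of the neuronal kind were mostly higher in neurons. Ptbp1, which represses neuronal exons in non-neuronal cells, ranged from 448 to 679 CPM (median 551) in MN1 cells and from 17.2 to 31.9 CPM (median 25.4) in neurons (4.49 ± 0.14, adjusted p = 6.9e-16), and Ptbp2, its neuronal paralog, from 21.7 to 30.2 CPM (median 27.2) in MN1 cells and from 75.6 to 133 CPM (median 82.8) in neurons (-1.74 ± 0.14, adjusted p = 8.1e-10). Both were separate, in opposite directions. Rest, the repressor of neuronal genes, ranged from 17.1 to 26.7 CPM (median 21.5) in MN1 cells and from 2.56 to 7.51 CPM (median 5.08) in neurons (2.09 ± 0.20, adjusted p = 1.1e-08). Of 8 tested regulators with widespread expression, 5 were higher in MN1 cells and 1 in neurons (62.5% and 12.5%, against 40.0% and 43.4% of all genes tested). Of 17 neuronal splicing regulators, 15 were higher in neurons (88.2%), among them Celf2 (-9.03 ± 0.37, adjusted p = 2.5e-14), Rbfox1 (-6.29 ± 0.20, adjusted p = 6.4e-16) and Rbfox3 (-8.77 ± 0.27, adjusted p = 5.6e-16). Others were shared: Celf3 was slightly higher in MN1 cells, from 331 to 406 CPM (median 369.6) in MN1 cells and from 202 to 284 CPM (median 258) in neurons (0.53 ± 0.10, adjusted p = 4.8e-05), Nova1 was not called, from 19.4 to 31.9 CPM (median 22.3) in MN1 cells and from 13.02 to 41.0 CPM (median 24.3) in neurons (-0.06 ± 0.22, adjusted p = 0.8), and Srrm4, which includes neuronal microexons, ranged from 34.4 to 44.7 CPM (median 40.8) in MN1 cells and from 82.1 to 132 CPM (median 98.2) in neurons (-1.33 ± 0.12, adjusted p = 3.8e-09).

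Isoforms of glycolysis and lactate genes differed. Of 22 glycolysis and lactate genes, 12 were higher in MN1 cells and 9 in neurons, with a median of 0.38. These shares were 54.5% and 40.9%, against 40.0% and 43.4% of all genes tested. Ldha, the lactate dehydrogenase form of glycolytic tissue, ranged from 759 to 888 CPM (median 848) in MN1 cells and from 152 to 362 CPM (median 292) in neurons (1.57 ± 0.15, adjusted p = 6.8e-09). Ldhb, the form of oxidative tissue, had no read in MN1 cells and ranged from 66.0 to 189.6 CPM in neurons, at least 680.1-fold higher. The lactate exporter Slc16a3 (MCT4) ranged from 258 to 468 CPM (median 319) in MN1 cells and from 0 to 11.9 CPM (median 5.47) in neurons (6.03 ± 0.29, adjusted p = 2.6e-13), and the neuronal importer Slc16a7 (MCT2) from 0 to 0.549 CPM (median 0) in MN1 cells and from 15.2 to 64.8 CPM (median 24.1) in neurons, a ratio of 366, with a 95% counting interval of 65.4 to 14470. Hexokinases divided likewise, with Hk2 at 4.53 ± 0.22, adjusted p = 3.2e-13 and Hk1 at -2.04 ± 0.12, adjusted p = 5.4e-12. None of these 6 overlapped between the cell types, which held for 64.9% of all genes tested.

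Growth factor receptors differed. Ntrk2 (TrkB), the BDNF receptor of cortical neurons, ranged from 0 to 1.10 CPM (median 0.151) in MN1 cells and from 479.6 to 858 CPM (median 613) in neurons (-10.60 ± 0.34, adjusted p = 9.2e-16). No MN1 library came near a neuron library. Of 20 tested receptors, 7 were higher in MN1 cells and 13 in neurons (35% and 65%, against 40.0% and 43.4% of all genes tested). Of 21 activity-dependent genes, 15 were higher in neurons and 3 in MN1 cells (71.4% and 14.3%, against 43.4% and 40.0% of all genes tested). Those higher in neurons included Bdnf, from 0 to 1.84 CPM (median 0.775) in MN1 cells and from 20.6 to 68.3 CPM (median 46.4) in neurons (-5.76 ± 0.45, adjusted p = 4e-10), and Egr3, which had no MN1 read and was at least 423-fold higher. Ier2 (3.08 ± 0.21, adjusted p = 6.4e-11) and Junb (1.33 ± 0.26, adjusted p = 8.3e-05), which serum induces as well, were higher in MN1 cells, and Arc was not called (0.02 ± 0.31, adjusted p = 0.95).

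**Figure D4:**
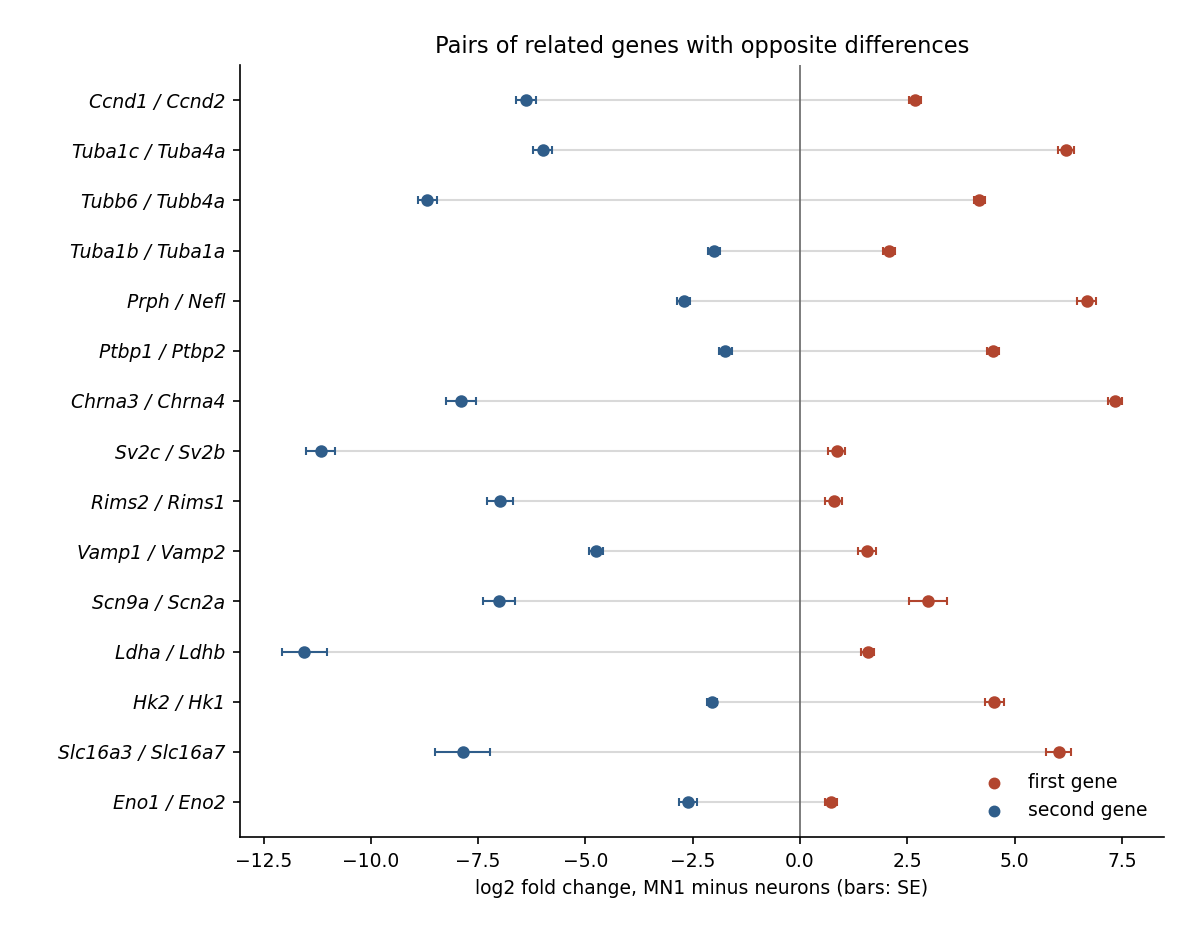
Log2 fold change, MN1 minus neurons, of 15 pairs of related genes, with bars for the standard error, the first gene of each pair in red and the second in blue. The pairs were chosen after their values were seen. Each first gene was above 0 and each second gene below, from 7.34 for Chrna3 to -11.55 for Ldhb, whose fitted value rests on no MN1 read.

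Matrix and adhesion genes differed in both directions. Of 23 glycoprotein, proteoglycan and integrin genes, 10 were higher in MN1 cells and 10 in neurons (43.5% each), shares near the 40.0% and 43.4% of all genes tested. Fibronectin (Fn1) ranged from 211 to 512 CPM (median 328) in MN1 cells and from 3.98 to 21.1 CPM (median 9.10) in neurons (5.13 ± 0.31, adjusted p = 9.4e-12), galectin-1 (Lgals1) from 166 to 278 CPM (median 202) in MN1 cells and from 0 to 2.27 CPM (median 1.77) in neurons (7.09 ± 0.23, adjusted p = 1.1e-15), and laminin Lama5 from 187 to 259.5 CPM (median 221) in MN1 cells and from 4.83 to 11.4 CPM (median 6.68) in neurons (4.96 ± 0.17, adjusted p = 1.3e-15). MN1 cells were above neurons throughout. Neurocan (Ncan), a proteoglycan of brain matrix, ranged from 4.94 to 16 CPM (median 12.0) in MN1 cells and from 563 to 1034 CPM (median 644) in neurons (-5.88 ± 0.23, adjusted p = 1.4e-14), and tenascin-R (Tnr), a part of perineuronal nets, from 0.473 to 3.29 CPM (median 0.827) in MN1 cells and from 73.9 to 187 CPM (median 120.1) in neurons (-6.33 ± 0.34, adjusted p = 1.3e-12). Of 7 tested collagens 6 were higher in neurons (85.7%, against 43.4% of all genes tested), and Col18a1 was higher in MN1 cells (4.63 ± 0.26, adjusted p = 3e-12).

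Imprinted genes were mostly lower in MN1 cells. Of 19 tested, 14 were higher in neurons, 3 in MN1 cells and 2 were not called (median -1.82). These shares were 73.7% and 15.8%, against 43.4% and 40.0% of all genes tested. Necdin (Ndn), of the Prader-Willi region, had no MN1 read and ranged from 134 to 231 CPM in neurons, at least 834-fold higher, while Magel2 beside it was not called (-0.08 ± 0.22, adjusted p = 0.74). Meg3, a maternally expressed non-coding RNA, ranged from 0 to 0.461 CPM (median 0) in MN1 cells and from 51.7 to 151 CPM (median 100.3) in neurons, a ratio of 700.3, with a 95% counting interval of 194 to 5786. Dlk1, the paternally expressed neighbour of Meg3, ranged from 129.5 to 201 CPM (median 182) in MN1 cells and from 5.13 to 291 CPM (median 15.8) in neurons (1.36 ± 0.65, adjusted p = 0.06). The groups overlapped, as WT neuron replicate 2 lay above all MN1 libraries, and without it the log2 fold change was 2.51 and passed the test. The growth-promoting Peg10 (3.06 ± 0.28, adjusted p = 5.8e-09) and Mest (2.64 ± 0.26, adjusted p = 1.8e-08) were higher in MN1 cells. H19 had 51 reads in MN1 cells and 0 in neurons and was not tested. Of the Y-linked genes, Ddx3y had 3 reads in MN1 cells and ranged from 3.55 to 33.3 CPM in neurons, a ratio of 61.5, with a 95% counting interval of 20.9 to 300. Xist had 5 and 3 reads, and for Xist, H19 and Meg3 it counts that reads matching annotated non-coding RNAs had been removed before alignment.

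Tardbp, which encodes TDP-43, ranged from 226 to 426 CPM (median 368) in MN1 cells and from 59.2 to 115 CPM (median 70.6) in neurons (2.13 ± 0.17, adjusted p = 4.6e-10). The groups did not overlap. Reads from the human sequence could also align here, and their part was not tested. In the MN1 cells with GFP, which carry none, the 2 libraries had 227 and 247 CPM, against 351 to 426 CPM in MN1 cells with either human protein. The 2 WT neuron libraries had 65.7 and 115 CPM and the transgenic ones 59.2 to 88.3 CPM. Of 29 tested genes linked to TDP-43 and ALS, 13 were higher in MN1 cells and 14 in neurons (44.8% and 48.3%, near the 40.0% and 43.4% of all genes tested), with a median of 0.10. Stmn2, a microtubule regulator whose splicing depends on TDP-43 in human neurons, ranged from 0.302 to 8.06 CPM (median 2.04) in MN1 cells and from 674 to 1165 CPM (median 899.7) in neurons (-7.96 ± 0.38, adjusted p = 2.1e-13), without overlap.

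Long genes were lower in MN1 cells as a class. The genomic span of a gene is the distance from its first to its last annotated exon. For 2801 genes spanning up to 10 kb, the median log2 fold change was 0.31, with 29.4% over 2-fold higher in MN1 cells and 22.7% in neurons. Between 20 and 50 kb 23.6% were higher in MN1 cells and 23.1% in neurons. Beyond 500 kb, 153 of 180 genes (85.0%) were over 2-fold higher in neurons and 4 (2.22%) in MN1 cells, with a median of -5.65. The genes over 2-fold higher in neurons had a median span of 44.7 kb and those higher in MN1 cells of 17.7 kb. The shares are counts over genes with no test, and exon length rose with span as well, from a median of 2.31 kb in the first class to 9.50 kb in the last. Lsamp, a cell adhesion gene of 2197 kb, ranged from 0 to 2.56 CPM (median 0.914) in MN1 cells and from 253 to 712 CPM (median 402) in neurons (-8.47 ± 0.38, adjusted p = 9.1e-14). The 4 that were higher in MN1 cells were Slit3, Pard3, Alk and Chd1, the last with a span that is uncertain in the files' annotation. Of 23 tested genes fixed as long neuronal genes, 20 were higher in neurons and 1 in MN1 cells. Wwox, a 913 kb gene expressed in most tissues, was not called, from 16.9 to 23.2 CPM (median 20.3) in MN1 cells and from 13.7 to 25.8 CPM (median 19.9) in neurons (0.02 ± 0.15, adjusted p = 0.97), though it was with library totals as the only scaling (0.45, adjusted p = 0.0122).

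**Figure D5:**
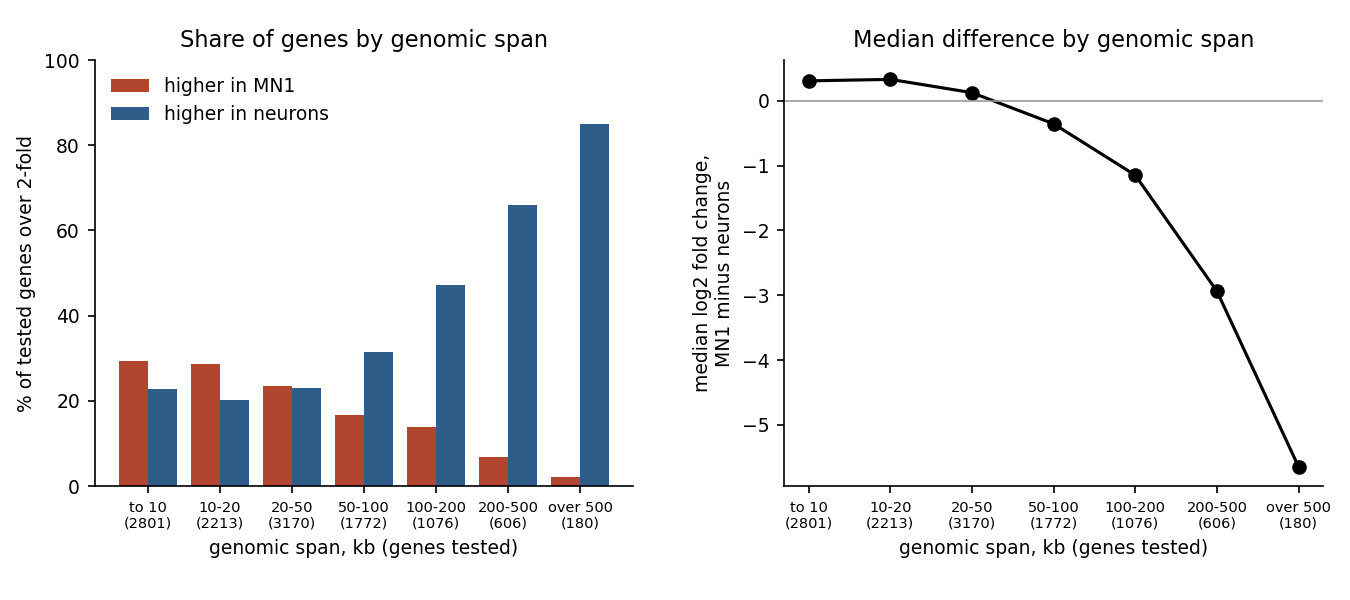
Left, share of tested genes that were over 2-fold higher in MN1 cells (red) or in neurons (blue) by genomic span in kb, with the number of genes under each class. Right, the median log2 fold change, MN1 minus neurons, of the same classes, which went from 0.31 for genes up to 10 kb to -5.65 beyond 500 kb.

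Genes were also ranked by size among called, non-overlapping protein-coding genes with a mean of at least 50 CPM in the higher cell type. The 12 with the largest differences in each direction came partly from the lists above. Higher in neurons were Thy1, a surface glycoprotein with no MN1 read and 318 to 818 CPM in neurons (at least 2735-fold higher), Tmsb4x, the actin-sequestering thymosin beta 4 (at least 2843-fold higher, a gene with many processed copies), and Gpm6a, a glycoprotein of growth cones with 1 MN1 read against 26953 (ratio 15750, with a 95% counting interval of 2826 to 622100). Adcy1, a calmodulin-stimulated adenylyl cyclase, ranged from 0 to 0.906 CPM (median 0.230) in MN1 cells and from 2137 to 3737 CPM (median 2358) in neurons (-12.68 ± 0.37, adjusted p = 2.9e-16), and Rtn1 from 0 to 0.946 CPM (median 0.230) in MN1 cells and from 1402 to 2128 CPM (median 1888) in neurons (-12.40 ± 0.33, adjusted p = 9.9e-17). Non-overlap was a condition for entering this ranking. The other 7 were Sst, Cx3cl1, Nell2, Sprn, Ndn, Cck and Nsg1. Higher in MN1 cells, beside Gata2, Phox2a, Hand2 and the cell cycle genes Pbk, Kif18b and E2f2, were Rhox5, Olfml1, Lin28a, Sohlh2, Asz1 and 4930550L24Rik.

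The cell types were also compared within TDP-43 groups. When GFP-transfected MN1 cells were set against WT neurons, and the hTDP-43 and hTDP-43 A315T groups against each other, 10643 of 11818 genes tested (90.1%) had the same direction in all 3 matched comparisons, which share no library with each other. The interaction of cell type with TDP-43 group was called for 0 of 11818 genes by edgeR, with 219 (1.85%) at an unadjusted p below 0.05. Each group held only 2 or 3 libraries, so the absence of calls does not show that pooling hid no difference. Tardbp itself was not called, though it was higher with either human protein in MN1 cells and not in neurons. Ribosome footprints from the same cultures, tested separately, called 39.5% of 9518 genes higher in MN1 cells and 44.5% higher in neurons. Of 4898 genes over 2-fold apart in total mRNA and tested in both, 4883 had the same direction in footprints and 4860 were also called there. Both readouts share cultures and are not independent. Slit3 was an exception in size, with a log2 fold change of 2.21 ± 0.15 in total mRNA and 0.23 ± 0.15 in footprints (adjusted p = 0.16). For Csmd3, a long adhesion gene, no difference was called in total mRNA (0.14 ± 0.29, adjusted p = 0.67), except with library totals as the only scaling (0.60, adjusted p = 0.0405), and one was in footprints, at -3.88 ± 0.32 (adjusted p = 1.1e-11). Slit3 and Csmd3 were picked after their values were seen, and the difference between readouts was not tested.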

How the data were processed

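Counts of reads per gene were deposited, 1 table for each library. According to the study's methods, the authors trimmed poly(A)-selected, fragmented reads with cutadapt 1.8.1, removed those matching annotated non-coding RNA with Bowtie2, aligned the rest to GRCm38 with TopHat2 and counted them with featureCounts 1.4.4. Per the file headers, exons were counted with no strand option set, from alignment files whose names mark unique reads. Overlapping genes, antisense partners and near-identical copies are therefore uncertain.

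The 6 MN1 and 8 neuron total mRNA libraries were compared in edgeR 4.0.16 (R 4.3.3, limma 3.58.1), with TMM scaling and the quasi-likelihood test on cell type alone, after filterByExpr (minimum count 10, minimum total 15). The test was two-sided, with Benjamini-Hochberg adjustment over 11818 genes and a threshold of 0.05, and glmTreat tested against 2-fold. The same fit was run on footprints. CPM used TMM-scaled totals, and RPKM also the exon length in the files. Genes without reads in a cell type were set at 3 reads over its pooled libraries, and ratios with 1 to 3 reads carry 95% intervals. These cover counting error only. Read counts in the text are raw sums over the libraries of a cell type, not scaled for depth.

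Genes were named as the 12 largest differences in each direction among 4600 called, non-overlapping protein-coding genes with a mean of at least 50 CPM in the higher cell type, and from each list as the 4 highest and 4 lowest log2 fold changes and the 4 highest mean RPKM values, with any member of the lineage, glial, Hox, imprinted and sex-linked lists. Pairs of related genes, and list members outside this rule, were chosen after their values were seen. The members and lists were chosen with earlier results of these data known. Replicate numbers mark culture dates within a cell type. Across cell types, the deviations of same-numbered libraries correlated with a mean r of 0.0783 (range -0.159 to 0.216) against -0.0353 for different numbers, so the numbers were not used as pairs. Promoter windows were from RefSeq (GRCm38.p6). Alternatives included other scalings, no filter, DESeq2 1.42.0, limma-voom with date as a random effect (correlation 0.203), sums by date, single TDP-43 groups and leaving out each library. Some genes are not reported here.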

Additional observations from a re-analysis of the deposited data

Results flagged for a closer look

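In 11 of the 258 sets of values examined (1 gene or library measure in 1 cell type), the highest or lowest library stood apart from the rest, with a gap to the nearest value above the 95% limit of Dixon's ratio for that number of libraries. Chance alone flags about 1 set in 20. The ratio given is the gap over the whole range, on the log2(CPM + 1) scale.

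Of the 10 sets in neurons, 7 were set by WT replicate 3, in which Lars2 made up 18.8% of reads. It was the lowest for Slc17a7, the vesicular glutamate transporter (468 CPM against 830 to 1099 CPM, ratio 0.671), for Rbfox3 (228 against 295 to 339 CPM, 0.654), for E2f1 (30.03 against 39.0 to 48.3 CPM, 0.550), for Dlg4 (673 against 1084 to 1503 CPM, 0.593) and for Cx3cl1 (283 against 470.4 to 738 CPM, 0.530). It was the highest for Rb1 (55.8 against 15.1 to 25.1 CPM, 0.617) and Ptbp2 (133 against 75.6 to 90.6 CPM, 0.680). Another 2 were set by hTDP-43 replicate 3, in which Lars2 made up 14.1% of reads and which was the highest for Ccnd2 (535 against 242 to 329.5 CPM, 0.611) and Bsn (1744 against 820 to 1095 CPM, 0.617). The last was set by hTDP-43 A315T replicate 3, the lowest for Fabp7 (13.3 against 28.4 to 52.8 CPM, 0.545).

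In MN1 cells, Uhrf1 was highest in hTDP-43 A315T replicate 1 (259 against 197 to 214 CPM, 0.704). None of these libraries reached the values of the other cell type for its gene.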

How the results depend on the processing

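Of 185 tested genes named in the text and figures, 172 were called, and none of these changed direction under the alternatives run. All 13 that were not called changed sign under at least 1 alternative, 8 of them with library totals as the only scaling. Over all fits, 5258 gene results stayed on their side of the threshold, 62 lost the call and 26 gained it. The count of 9851 genes, of 11818 tested, was 6471 of 12105 with the GFP and WT groups only (2722 higher in MN1 cells). Against 2-fold it was 6130 of 11818 (2695). It was 13150 of 29493 genes tested without the filter on low counts, of which 5671 were higher in MN1 cells. Leaving out 1 library at a time gave 9642 to 9913 genes, the MN1 side from 4554 to 4764 and the neuron side from 4992 to 5256, and 613 to 621 list members (MN1 side 241 to 249, neuron side 369 to 374). The split of calls moved with scaling, from 48.0% higher in MN1 cells with TMM to 52.9% with upper-quartile scaling and 58.2% with library totals. Outside the test against 2-fold, 14 genes lost their call under at least 1 alternative, and all 14 did so with the GFP and WT groups only, where the log2 fold changes were 1.72 for Th (adjusted p = 0.0996), -0.90 for Mycn (0.069), 0.93 for Pax6 (0.204), -0.33 for Cdkn1a (0.444), -1.52 for Rb1 (0.081), 1.99 for Scn9a (0.14), 0.67 for Sv2c (0.135), 0.52 for Rims2 (0.345), 0.41 for Tubb5 (0.459), 0.52 for Celf3 (0.232), 2.83 for Hoxc6 (0.0618), 0.63 for Eno1 (0.192), 0.79 for Rpl38 (0.306) and -1.69 for Hoxb9 (0.0714). Rpl38 lost it under 20 alternatives, Cdkn1a under 5 (upper-quartile scaling, library totals, sums by culture date, GFP and WT groups and hTDP-43 groups), and Mycn and Hoxb9 under 4, library totals among them. Tubb5, Celf3, Eno1 and Sv2c also lost it with the hTDP-43 groups only and Pax6 with the hTDP-43 A315T groups only. With library totals as the only scaling Dlk1 (1.71, adjusted p = 0.0248), Csmd3 (0.60, 0.0405) and Wwox (0.45, 0.0122) gained a call. DESeq2 called 9869 of 11818 genes tested. Sums by culture date called 10670 of 13916, as more genes passed the filter there, so the larger count is not a larger share. With a replicate block, 9839 genes were called, 4757 of them higher in MN1 cells, and Id2, Dlg1, Kif5b and Dlk1 gained a call, but the numbers name dates within a cell type rather than pairs. Depth limited statements on genes under the filter, among them most Hox, oligodendrocyte and microglial genes.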

Other observations

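Among the 12 genes with the largest differences towards MN1 cells were several that are best known from germ cells. Rhox5, a homeobox gene of the reproductive tract, had a median of 256 CPM in MN1 cells and 0 CPM in neurons (log2 fold change 9.71 ± 0.24, adjusted p = 6.7e-17). Sohlh2, a germ cell transcription factor, had 138 CPM in MN1 cells and 0 CPM in neurons (log2 fold change 9.33 ± 0.27, adjusted p = 2.4e-16), and Asz1, a gene of the germ cell piRNA machinery, 66.9 CPM in MN1 cells and 0 CPM in neurons (ratio 774, 95% counting interval 214 to 6397). Lin28a, the RNA-binding protein of embryonic and germ cells that blocks let-7 maturation, had 57.2 CPM in MN1 cells and 0 CPM in neurons (ratio 1388, 95% counting interval 248 to 54890). These genes were grouped after their values were seen.

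Of 24 processed pseudogenes tested, 19 were over 2-fold higher in MN1 cells (79.2%, against 22.8% of all genes tested). The median log2 fold change of the 24 was 2.84. Reads of a parent gene and its copies can be exchanged in counting.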
